A study of Mus musculus with 30 samples.

Results

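The CXC chemokines described here are 8 genes, Cxcl1, Cxcl2, Cxcl3, Cxcl9, Cxcl10, Cxcl11, Cxcl14 and Cxcl16, of 24761 gene symbols in the deposited table. They were chosen by symbol, and for each symbol the transcript with the highest mean over all 30 libraries was kept. RNA came from macrophages that were grown with M-CSF out of bone marrow cells of wild-type mice of the C57Bl/6 strain. The cells of cultures M2, M3 and M4 received 1 µM metaproterenol hemisulfate (MPH), an agonist of the β2 adrenergic receptor, and those of D3 to D6, of UKD and of r1 and r2 received the vehicle DMSO, in both cases for 2 h. Lipopolysaccharide (LPS), labelled as 100 ng/µL, then followed for 0, 1 or 2 h, with 1 library per culture and time. Cells at 0 h had the pretreatment alone. MPH was compared with D3 to D6, whose names run alongside those of the MPH cultures, and the LPS response under DMSO was taken over all 7 cultures. The labels do not say which mice, of what age or sex, gave which culture, so the spread between cultures may be technical in part. The reported p-values come from fits without a term for culture, which count the libraries of a culture as independent.

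CXC chemokines are small secreted proteins that direct leukocytes along gradients. Cxcl1, Cxcl2 and Cxcl3 bind the receptor Cxcr2 and attract neutrophils. Cxcl9, Cxcl10 and Cxcl11 bind Cxcr3 on T and NK cells and are classical targets of interferons, and Cxcl10 is also switched on by LPS through NF-kB and interferon regulatory factors. Cxcl14 is best known from epithelia and stroma. Cxcl16 is made as a membrane protein that binds Cxcr6 and, in mouse and human, can be shed by Adam10 and Adam17. RefSeq (GRCm38.p6) lists Cxcl11 as a transcribed pseudogene in the C57Bl/6-based mouse genome and places Cxcl1 next to Cxcl2, and Cxcl10 next to Cxcl11, on chromosome 5.

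Values are RPKM, reads scaled to transcript length and library size, so they can be compared between genes. Approximate depth ran from 5.4 to 92.1 M reads with a median of 41.3 M, with D6, UKD and D4 at 1 h as the shallowest. No value was 0, since the deposited table gives unread transcripts what 1 read would be worth, and the lowest values are therefore upper limits. All 8 macrophage markers had a median of at least 1 RPKM in every group, with sums from 3761 to 7226 RPKM. The 9 neutrophil markers summed to 41.1 to 90.4 RPKM in the MPH libraries. In the DMSO libraries they summed to between 5.80 RPKM (D6 at 0 h) and 92.6 RPKM (D5 at 2 h). The culture r2 was at or below 7.16 RPKM at all times. S100a8 or S100a9 was the highest of these markers in every library, Ngp reached 11.9 RPKM and Ly6g stayed at or below 0.356 RPKM. The 9 fibroblast and stromal markers stayed at or below 3.57 RPKM in sum in all 30 libraries. The sums stayed at or below 0.876 RPKM for the 6 T and NK cell markers, 0.778 RPKM for the 6 dendritic cell markers and 1.49 RPKM for the 5 B cell markers. The 5 endothelial markers summed to 8.94 to 25.3 RPKM. Most of this was Vwf, at 6.19 to 17.4 RPKM, and Kdr, at 1.43 to 10.2 RPKM. Pecam1, Cdh5 and Tek stayed at or below 0.453, 0.671 and 0.081 RPKM in all 30 libraries. In these bulk samples fewer cells making a transcript and less of it per cell cannot be told apart.

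The regions just before the starts of the LPS-induced genes are shown because the 3 neutrophil-attracting chemokine genes share a run of letters there. Windows of 250 bases before the start were found in the RefSeq promoter table (GRCm38.p6) for 6 of the 8 genes. They lie at chr5:90890995-90891244 (plus strand) for Cxcl1, chr5:90903649-90903898 (plus strand) for Cxcl2, chr5:90785851-90786100 (plus strand) for Cxcl3, chr5:92348890-92349139 (minus strand) for Cxcl10, chr5:92328080-92328329 (minus strand) for Cxcl9 and chr13:56296552-56296801 (minus strand) for Cxcl14. Each is written 5′ to 3′ on the strand of its gene, up to the base before the start. Capitals mark matches to a kB motif, GGG and TTCC with any 3 bases between them, on either strand, the kind of site bound by NF-kB.
Cxcl1: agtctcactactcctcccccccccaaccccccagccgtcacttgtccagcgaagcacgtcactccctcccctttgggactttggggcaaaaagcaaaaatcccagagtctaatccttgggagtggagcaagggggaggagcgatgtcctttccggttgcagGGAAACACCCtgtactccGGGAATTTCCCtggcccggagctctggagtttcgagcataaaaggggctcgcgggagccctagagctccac
Cxcl2: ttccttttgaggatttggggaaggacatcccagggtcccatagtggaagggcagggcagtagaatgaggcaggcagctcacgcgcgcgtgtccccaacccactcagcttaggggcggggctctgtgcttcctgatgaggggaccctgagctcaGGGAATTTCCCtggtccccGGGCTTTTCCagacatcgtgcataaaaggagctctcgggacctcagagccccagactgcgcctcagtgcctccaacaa
Cxcl3: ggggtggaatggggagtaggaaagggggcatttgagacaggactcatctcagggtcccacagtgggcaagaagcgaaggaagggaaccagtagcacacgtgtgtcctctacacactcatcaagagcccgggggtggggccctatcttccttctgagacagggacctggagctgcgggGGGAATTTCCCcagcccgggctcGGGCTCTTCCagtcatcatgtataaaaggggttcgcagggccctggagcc
Cxcl10: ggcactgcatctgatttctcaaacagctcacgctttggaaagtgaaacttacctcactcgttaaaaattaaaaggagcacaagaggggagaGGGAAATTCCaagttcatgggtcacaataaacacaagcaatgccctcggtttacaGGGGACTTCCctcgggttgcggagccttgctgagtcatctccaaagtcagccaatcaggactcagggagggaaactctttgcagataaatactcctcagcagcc
Cxcl9: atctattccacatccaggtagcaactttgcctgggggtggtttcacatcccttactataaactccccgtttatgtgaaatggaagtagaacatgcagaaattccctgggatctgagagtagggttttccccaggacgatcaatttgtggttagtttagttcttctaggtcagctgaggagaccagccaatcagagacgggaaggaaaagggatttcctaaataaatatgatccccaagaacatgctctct
Cxcl14: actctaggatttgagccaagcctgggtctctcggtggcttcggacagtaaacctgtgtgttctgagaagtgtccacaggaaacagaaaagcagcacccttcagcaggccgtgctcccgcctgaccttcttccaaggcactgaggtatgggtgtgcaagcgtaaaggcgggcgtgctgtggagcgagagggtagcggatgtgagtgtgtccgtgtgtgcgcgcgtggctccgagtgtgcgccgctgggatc

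The kB motif was present in 4 of the 6 windows, those of Cxcl1, Cxcl2, Cxcl3 and Cxcl10, and in 4.65% of the 32851 promoter windows of this length in the table. Cxcl1, Cxcl2 and Cxcl3 each hold the run GGGAATTTCCC, which begins 71, 97 and 73 bases before the start and matches the motif on both strands, with 9 of 10 bases in common between the matches. A further match stands within 30 bases of it in each of the 3 windows, GGAAACACCC in Cxcl1 (minus strand), GGGCTTTTCC in Cxcl2 and GGGCTCTTCC in Cxcl3. In Cxcl10 the matches are GGGAAATTCC and GGGGACTTCC, which begin 159 and 104 bases before the start. Its window also holds the core of an interferon-stimulated response element, a pair of GAAA with any 2 bases between them, beginning 213 bases upstream, and an AP-1 motif, TGANTCA, beginning 74 bases upstream. The first of these is in 2.98% of all windows and the second in 6.75%. The window of Cxcl14 holds 1 interferon response core and no kB match, and that of Cxcl9 holds neither. The full cyclic AMP response element TGACGTCA, found in 1.55% of windows, is in none of the 6, and its half-site TGACG, found in 17.8%, is in that of Cxcl1 only. The letters TATAAA, found in 12.4%, are in Cxcl3 and Cxcl9. These matches describe letters and say nothing of binding in these cells.

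**Figure D1:**
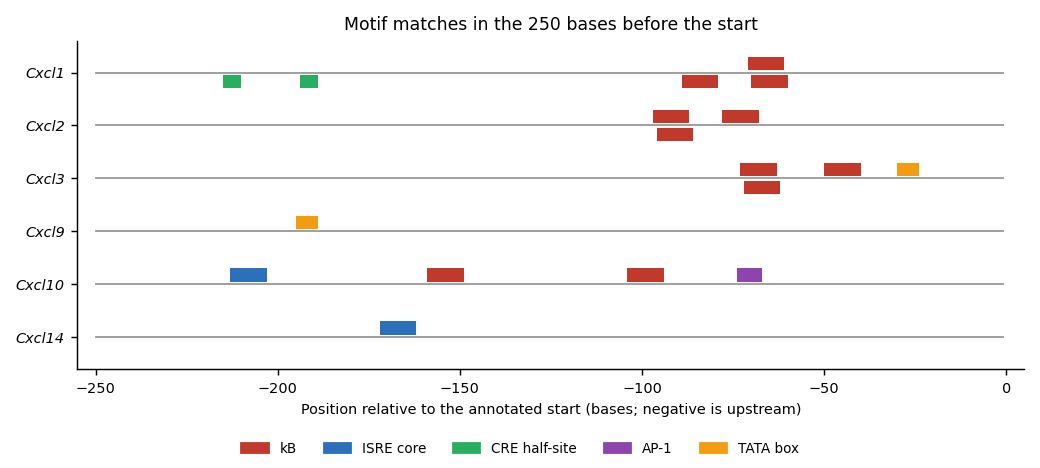
Positions of motif matches in the 250 bases before the annotated start of 6 CXC chemokine genes (x axis, bases; boxes above the line are on the strand of the gene, boxes below on the other strand). The kB boxes of Cxcl1, Cxcl2 and Cxcl3 all lie within the last 97 bases before the start, and the windows of Cxcl9 and Cxcl14 have none.

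Before LPS, the 8 transcripts spanned more than 3 orders of magnitude. In DMSO cultures at 0 h the medians ran from Cxcl16 at 17.5 RPKM through Cxcl14 at 2.59, Cxcl10 at 1.51, Cxcl2 at 1.07, Cxcl1 at 0.286, Cxcl3 at 0.0381 and Cxcl11 at 0.0339 to Cxcl9 at 0.0140 RPKM. The ranges of Cxcl14, Cxcl10 and Cxcl2 overlapped one another, as did those of Cxcl3, Cxcl11 and Cxcl9, whereas the lowest Cxcl16 value, 9.78 RPKM, lay above every Cxcl14 value. After 1 h Cxcl2 stood first, and its DMSO values of 848 to 1956 RPKM lay above all values of the other genes. Cxcl10 and Cxcl1 followed with overlapping ranges. By 2 h Cxcl10 and Cxcl2 overlapped at the top of the DMSO cultures, with medians of 1049 and 878 RPKM. Under MPH the same 2 genes led at 2 h, with Cxcl2 at a median of 785 RPKM and Cxcl10 at 531 RPKM.

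**Figure D2:**
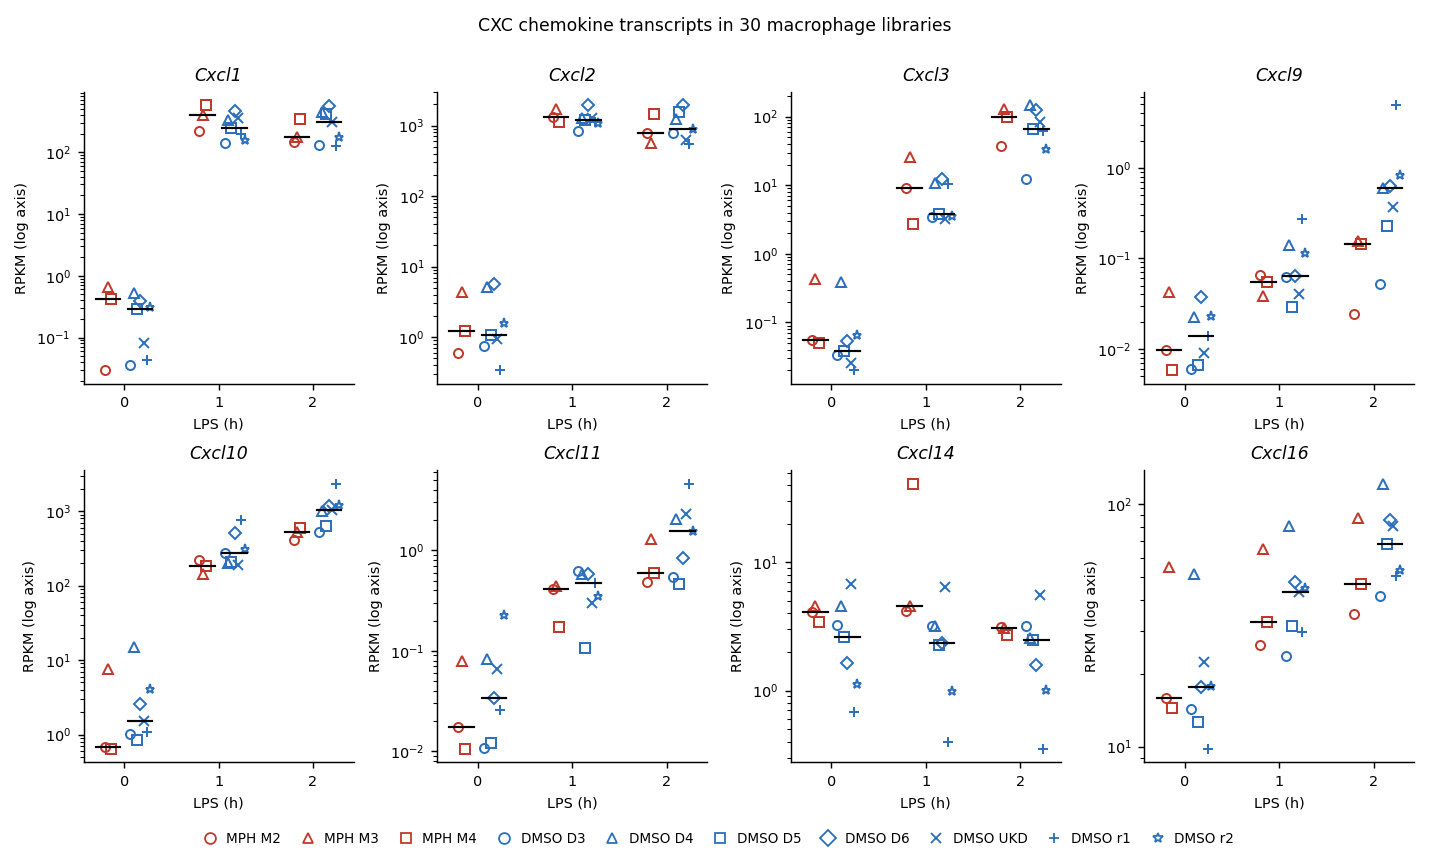
RPKM (log axes) of the 8 CXC chemokine transcripts at 0, 1 and 2 h of LPS, 1 point per library, MPH cultures in red left of DMSO cultures in blue, with a bar at the median of each group. Cxcl1 and Cxcl2 were above 100 RPKM from 1 h on, Cxcl3 and Cxcl10 kept climbing, and the Cxcl14 value of the 1 h library labelled M4, 41.1 RPKM, stands above all others.

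LPS switched on the neutrophil-attracting chemokines Cxcl1 and Cxcl2 within 1 h. Cxcl1 stood at 220, 394 and 580 RPKM in M2, M3 and M4 at 1 h, against 0.0294, 0.656 and 0.424 RPKM at 0 h. In the DMSO cultures the lowest, median and highest values of Cxcl1 at 1 h were 141, 250 and 460 RPKM, against 0.0364, 0.286 and 0.521 RPKM at 0 h. The times did not overlap, and the rise at 1 h was 8.80 on the log2 scale under MPH (SE 0.52, adjusted p = 4.37e-09) and 8.44 under DMSO (SE 0.30, adjusted p = 5.90e-14). These differences, and all that follow, are on the log2(RPKM + 0.5) scale, which understates the change of a gene near 0. They were tested with limma over all genes, with Benjamini-Hochberg adjustment and a threshold of 0.05.

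Cxcl2 was at 1324, 1688 and 1139 RPKM in M2, M3 and M4 at 1 h, against 0.592, 4.31 and 1.22 RPKM at 0 h. In the DMSO cultures it stood at 848, 1204 and 1956 RPKM (lowest, median and highest) at 1 h, against 0.338, 1.07 and 5.70 RPKM at 0 h. Cxcl2 thus rose by 9.36 on the log2 scale under MPH (SE 0.61, adjusted p = 1.53e-08) and by 9.20 under DMSO (SE 0.35, adjusted p = 1.65e-13). Cxcl2 was the higher of the 2 genes in every library.

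After the first hour no further change of either gene passed the threshold under DMSO. Cxcl1 at 2 h was 0.10 above its 1 h level on the log2 scale (SE 0.30, adjusted p = 0.879) and Cxcl2 was -0.33 against its 1 h level (SE 0.35, adjusted p = 0.584). Under MPH, Cxcl1 stood at 145, 176 and 340 RPKM at 2 h and was below its own 1 h value in 3 of 3 cultures, with ratios of 2 h to 1 h of 0.661, 0.447 and 0.586. In DMSO cultures that ratio was above 1 in 4 of 7, with a range from 0.644 in r1 to 1.67 in D5, so the value of r1 lay within the MPH range. In D3 to D6 it was 0.932, 1.35, 1.67 and 1.23. The difference of Cxcl1 under MPH between 2 h and 1 h, -0.84 on the log2 scale, did not pass without a term for culture (SE 0.52, adjusted p = 0.441) and passed with one (SE 0.23, adjusted p = 0.0149), a fit in which 24.4% of all genes fell. The difference between these changes, MPH minus DMSO, was a comparison added after the values were seen. It was -1.19 for Cxcl1 and did not pass in either fit, with adjusted p = 0.99991 (SE 0.69) without the term and adjusted p = 0.298 (SE 0.31) with it. Over all genes 0% and 0.00977% were called. Without the 1 h library labelled M4 it was -1.08 with the term (SE 0.34, adjusted p = 0.590), where 0.00977% of all genes were called. Cxcl2 at 2 h was below its 1 h value in M2 and M3 but not in M4, and in 6 of 7 DMSO cultures, though in D6 the values at both times round to 1956 RPKM.

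**Figure D3:**
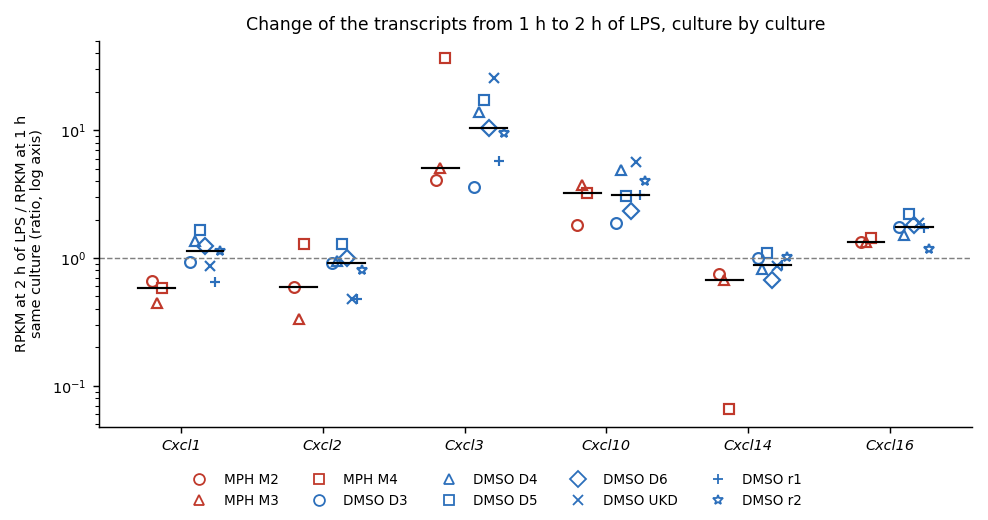
Ratio of RPKM at 2 h to RPKM at 1 h of LPS within each culture (log axis, dashed line at 1), for the 6 CXC chemokines tested in both fits, MPH in red left of DMSO in blue, with bars at the medians. Cxcl1 is below 1 in all 3 MPH cultures and above 1 in 4 of 7 DMSO cultures, whereas Cxcl3, Cxcl10 and Cxcl16 are above 1 in every culture.

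Cxcl3, the third ligand of Cxcr2 here, rose later. It was at 37.4, 129 and 100 RPKM in M2, M3 and M4 at 2 h, against 9.17, 25.4 and 2.74 RPKM at 1 h. In DMSO cultures its lowest, median and highest values were 12.5, 65.9 and 148 RPKM at 2 h, against 3.24, 3.85 and 12.2 RPKM at 1 h. In DMSO cultures the ranges of the times did not overlap. Its 1 h level was thus 2.74% to 24.5% of its 2 h level in MPH cultures and 3.91% to 27.7% in DMSO cultures. In the same terms the median of Cxcl1 was 171% under MPH and 88.4% under DMSO. At 0 h Cxcl3 rested on about 1 to 12 reads per library. The rise of Cxcl3 from 1 h to 2 h was called under DMSO, at 3.25 on the log2 scale (SE 0.44, adjusted p = 3.96e-05). Under MPH it was 3.08 (SE 0.80, adjusted p = 0.0427) and 2.32 without the 1 h library labelled M4 (adjusted p = 0.182). That call was also lost without the whole culture M2, M3, M4, D4, D5 or D6, with adjusted p between 0.0566 and 0.514. Without D4, D5 or D6 the difference under MPH itself stayed at 3.08. With a term for culture the rise under MPH was called. The increase was present in 3 of 3 MPH and 7 of 7 DMSO cultures. The call of the Cxcl3 rise at 1 h under MPH, 3.83 (SE 0.80, adjusted p = 0.00872), was lost without M2 or M3 (adjusted p = 0.114 and 0.111).

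Of the ligands of Cxcr3, Cxcl10 was the abundant one. It stood at 404, 531 and 588 RPKM in M2, M3 and M4 at 2 h, against 221, 143 and 184 RPKM at 1 h. The DMSO cultures had 521, 1049 and 2346 RPKM (lowest, median and highest) at 2 h, against 186, 276 and 758 RPKM at 1 h. In every culture the 2 h value was the higher, by 1.83 to 3.73 times under MPH and 1.89 to 5.63 times under DMSO. The rise at 2 h over 0 h was 7.83 under MPH (SE 0.76, adjusted p = 1.16e-06) and 8.50 under DMSO (SE 0.46, adjusted p = 2.09e-11). The step from 1 h to 2 h was called under DMSO, at 1.73 (SE 0.46, adjusted p = 0.00984), though not within D3 to D6 alone (1.51, adjusted p = 0.270) nor without the 3 shallowest libraries (1.72, adjusted p = 0.0568). Under MPH that step was 1.48 (SE 0.76, adjusted p = 0.321) and was not called under any of 15 alternatives.

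Cxcl9 and Cxcl11 had the lowest levels of the set at 2 h in most cultures. Cxcl11 reached 0.488, 1.29 and 0.601 RPKM in M2, M3 and M4 at 2 h, against 0.0176, 0.0786 and 0.0106 RPKM at 0 h. In DMSO cultures it was at 0.462 to 4.61 RPKM at 2 h (median 1.57), against 0.0109 to 0.226 RPKM at 0 h (median 0.0339), an increase of 1.78 (SE 0.26, adjusted p = 1.57e-05). At 1 h Cxcl11 under DMSO was 0.70 above 0 h (SE 0.26, adjusted p = 0.0664), and with a term for culture that difference passed (adjusted p = 0.0225), as it did with a pseudocount of 0.1, which put it at 1.68 (adjusted p = 0.00485). Cxcl9 had 0.0242, 0.156 and 0.144 RPKM in the MPH libraries at 2 h and 0.0516 to 4.94 RPKM in the DMSO libraries (median 0.598). The values of M2, M3 and M4 rested on about 1, 14 and 11 reads, and the lowest DMSO value, in D3, on about 7. All DMSO values other than that of r1 were at or below 0.826 RPKM, and about 1092 reads stood behind the r1 value. Cxcl9 did not reach 1 RPKM in 3 libraries and entered neither fit, and Cxcl11 entered only the DMSO fit. When no filter was applied, Cxcl9 rose by 1.19 at 2 h under DMSO (SE 0.28, adjusted p = 0.00336), and its difference of 0.22 under MPH did not pass (adjusted p = 0.824). The difference between the responses of M2 to M4 and D3 to D6, -0.48, was not called either. Cxcl11 without the filter rose by 1.22 at 2 h under MPH (SE 0.31, adjusted p = 0.0207). Its reads could not be estimated, and its lowest values at 0 h may be those of 1 read, which limits the size given for its rises.

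Cxcl16 was the member with the highest median before LPS, and its 2 h values were a few times those at 0 h. It was at 15.9, 54.8 and 14.4 RPKM in M2, M3 and M4 at 0 h, at 26.2, 65.3 and 32.6 RPKM at 1 h and at 35.2, 87.8 and 46.8 RPKM at 2 h. DMSO medians were 17.5, 43.5 and 68.6 RPKM at 0, 1 and 2 h, with ranges of 9.78 to 51.3, 23.7 to 80.8 and 41.8 to 121 RPKM. Within a culture it climbed at each step in 3 of 3 MPH and 7 of 7 DMSO cultures, and the ratio of 2 h to 0 h was 1.60 to 3.25 under MPH and 2.36 to 5.42 under DMSO. Under DMSO it rose by 1.87 at 2 h (SE 0.30, adjusted p = 4.50e-05) and by 1.12 at 1 h (SE 0.30, adjusted p = 0.0128). The 1 h call was lost within D3 to D6 (adjusted p = 0.381), without the 3 shallowest libraries (adjusted p = 0.125), and without the culture D6 (adjusted p = 0.0519) or r1 (adjusted p = 0.0571). Under MPH its differences of 0.70 at 1 h and 1.15 at 2 h did not pass without a term for culture (SE 0.60, adjusted p = 0.943 and 0.193) and passed with one (SE 0.20, adjusted p = 0.0367 and 0.000373). The step from 1 h to 2 h under DMSO, 0.75, likewise passed with the term (SE 0.12, adjusted p = 0.000109) and not without (SE 0.30, adjusted p = 0.0860). Adam17, a sheddase of Cxcl16, rose by 0.88 at 2 h under DMSO (SE 0.15, adjusted p = 5.17e-05), and of the 4 tested genes among 6 sheddases and proteases of chemokines it was the one called.

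Counted over the set, 5 of 7 tested members rose at 1 h of LPS under DMSO and 6 of 7 at 2 h, where 5.24% and 10.5% of all 10212 genes tested were called higher. Under MPH 4 of 6 tested members rose at 1 h and 4 of 6 at 2 h, against 1.89% and 5.97% of 10239 genes. From 1 h to 2 h, 3 of 7 rose under DMSO (6.59% of all genes called higher) and 1 of 6 under MPH (1.36% of all genes). No member was called lower in these 6 comparisons, where 15%, 43.6% and 15.4% of all genes were called lower under DMSO and 1.18%, 14.7% and 1.88% under MPH at 1 h, at 2 h and from 1 h to 2 h. With the term for culture 6 of 7 and 7 of 7 members were called at 1 h and 2 h under DMSO, 1 of them lower, where 53.5% and 76.9% of all genes were called in either direction. The member called lower was Cxcl14 at 2 h, -0.24 (SE 0.09, adjusted p = 0.0238), close to the median difference over all genes of -0.25. Under MPH the term for culture added Cxcl16 at 1 h and at 2 h (adjusted p = 0.0367 and 0.000373). In that fit 1236 and 5577 of 10239 genes were called in either direction. Cxcl1, Cxcl3 and Cxcl11 passed the filter on low values through their LPS-treated libraries alone, so these counts are no measure over all CXC genes. Median differences over all genes were -0.15 at 1 h and -0.25 at 2 h under DMSO, and rescaling by size factors moved them to -0.02 and -0.04. No call above 0 was turned to a fall by that rescaling.

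No change of Cxcl14 with LPS was called without a term for culture. The MPH libraries had 4.06, 4.54 and 3.44 RPKM at 0 h in M2, M3 and M4. At 1 h M2 and M3 were at 4.14 and 4.52 RPKM, whereas the library labelled M4 was at 41.1 RPKM, about 3303 reads. At 2 h the values were 3.12, 3.05 and 2.69 RPKM. In the DMSO cultures its level differed between cultures, at 0.351 to 0.679 RPKM in r1, 0.995 to 1.12 RPKM in r2, 5.54 to 6.78 RPKM in UKD and 1.58 to 4.59 RPKM in D3 to D6. Its differences under DMSO were -0.12 at 1 h (SE 0.18, adjusted p = 0.674) and -0.24 at 2 h (SE 0.18, adjusted p = 0.270, and 0.0238 with the term). The 2 h value was below the 0 h value in 3 of 3 MPH and 7 of 7 DMSO cultures, with ratios of 0.671 to 0.782 under MPH and 0.517 to 0.981 under DMSO. The 41.1 RPKM of the 1 h library labelled M4 is 6.06 times the highest of the other 29 libraries. Cxcl14 was the only gene of 10239 tested to stand at least 5 times above every other library in the 1 h library labelled M4. Of the other 29 libraries 1, that of r2 at 1 h, had a gene of that kind. Only genes with at least 1 RPKM in 3 or more libraries were tested. A gene at that level in the 1 h library labelled M4 alone could therefore not be counted. The 9 fibroblast and stromal markers summed to 0.188 RPKM in that library, the lowest of the 3 MPH libraries at 1 h, with the highest single marker at 0.0664 RPKM. At 1 h the MPH values lay above all 4 of D3 to D6 (2.26 to 3.16 RPKM), with the M4 library and without it, and overlapped UKD at 6.39 RPKM. The log2 difference of 1.63 at 1 h (SE 0.51) had an unadjusted p = 0.00525 and an adjusted p = 0.99989 in limma. Without the 1 h library labelled M4 it was 0.59 (SE 0.27, adjusted p = 0.483). Groups that did not overlap were found for 7.54%, 1.48% and 9.5% of all genes tested at 0, 1 and 2 h, and for 14.5% at 1 h without that library. Of the 6 members, Cxcl14 at 1 h was the only such case.

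No tested member differed between MPH and DMSO past the threshold at any time. Of 6 members, 0 were called at 0, 1 and 2 h in limma, where 0.869%, 0% and 0.869% of 10239 genes were called. Without the 1 h library labelled M4, 165, 137 and 215 of 10231 genes were called, against 89, 0 and 89 with it, and still 0 members. At an unadjusted p under 0.05 the member counts were 0, 1 and 0, the 1 being Cxcl14, against 685, 327 and 930 of all genes. The median over the members was 0.08 at 0 h, 0.26 at 1 h and -0.54 at 2 h, beside -0.04, 0.00 and -0.02 over all genes. The 95% intervals of these differences were wide, and each reached beyond a 2-fold change in at least 1 direction. Neither these intervals nor the p-values take account of any pairing between MPH and DMSO cultures. At 0 h the marker Cd68 was alike in M2 and D3, in M3 and D4, and in M4 and D5. A pairing of that kind was not tested, so a difference within such pairs could have been missed.

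At 2 h, Cxcl1 stood at 145, 176 and 340 RPKM in M2, M3 and M4, against 131, 443, 417 and 568 RPKM in D3, D4, D5 and D6. The 3 MPH values lay below those of D4, D5 and D6 and above that of D3, and the difference of -0.74 (95% interval -1.77 to 0.29) was not called (SE 0.49, adjusted p = 0.820). Cxcl2 stood at 785, 563 and 1474 RPKM, against 771, 1233, 1554 and 1956 RPKM in the same cultures, a difference of -0.59 (95% interval -1.78 to 0.60). Cxcl10 was at 404, 531 and 588 RPKM with MPH, against 521, 993, 632 and 1178 RPKM with DMSO, a difference of -0.65 (95% interval -2.15 to 0.85, adjusted p = 0.99989). Cxcl10 overlapped between the groups, with M3 and M4 above D3 and all 3 MPH values below those of D4, D5 and D6. Set against all 7 DMSO cultures its difference was -0.90 with the name series as a covariate (SE 0.63, adjusted p = 0.608) and -1.03 without (SE 0.61, adjusted p = 0.532). The remaining differences at 2 h were 0.32 for Cxcl3, 0.25 for Cxcl14 and -0.49 for Cxcl16, none of them called.

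At 1 h the differences other than that of Cxcl14 lay between -0.62 for Cxcl10 and 0.45 for Cxcl1. Cxcl3 at 1 h was 0.41 with the library labelled M4 and 1.17 without it (SE 0.78, adjusted p = 0.715). Before LPS the differences lay between -0.50 for Cxcl10 (SE 0.71) and 0.42 for Cxcl14. The LPS responses themselves were compared between MPH and DMSO as an interaction, and 0 of 6 members were called at 1 h and 0 of 6 at 2 h in limma, with 0 at an unadjusted p under 0.05 at either time. Among all genes 0% and 0.107% were called, and 83 and 318 had an unadjusted p under 0.05. The estimates at 2 h ran from -0.81 for Cxcl1 (SE 0.69) to 0.22 for Cxcl3 (SE 1.06). With a term for culture the SE of Cxcl1 fell to 0.31 and that of Cxcl16, at -0.70, to 0.27, each with an adjusted p = 0.288. In that fit 1.43% of all genes were called at 2 h and 0.195% at 1 h.

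**Figure D4:**
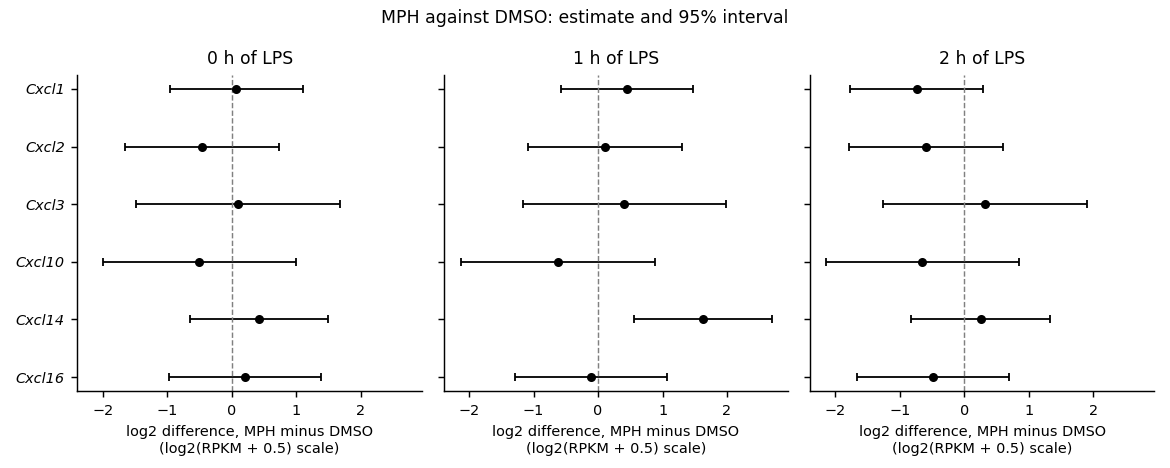
Log2 difference between MPH (M2 to M4) and DMSO (D3 to D6) at 0, 1 and 2 h of LPS for the 6 CXC chemokines tested, with 95% intervals from limma (log2(RPKM + 0.5) scale, dashed line at 0). All intervals include 0 except that of Cxcl14 at 1 h, 0.55 to 2.70, which is not adjusted for the number of genes and includes the library labelled M4.

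Part of the spread between cultures was shared by several members. Before LPS, D4 and M3 were the highest of their pretreatments for Cxcl16 (54.8 RPKM in M3 and 51.3 RPKM in D4), Cxcl3 (0.428 and 0.389 RPKM) and Cxcl10 (7.48 and 15.0 RPKM). For Cxcl16 they stayed highest at 1 h, with 65.3 and 80.8 RPKM, and at 2 h, with 87.8 and 121 RPKM. The culture r1 was the highest of the 10 at 2 h for all of the Cxcr3 ligands, with 4.94 RPKM of Cxcl9, 2346 RPKM of Cxcl10 and 4.61 RPKM of Cxcl11. At that time it was the lowest for Cxcl1, at 125 RPKM, and for Cxcl2, at 539 RPKM.

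Genes with the most similar pattern were ranked by Pearson correlation of log2 values over the 30 libraries, which share cultures and times, among 10355 genes. Cxcl1 and Cxcl2 were each other's nearest gene (r = 0.991), followed by Socs3 (0.989) and the NF-kB inhibitor gene Nfkbia for Cxcl1, and by Nfkbiz (0.986) and Socs3 (0.984) for Cxcl2. Cxcl3 lay closest to Malt1 (0.968), Plagl2 (0.962) and Rab11fip1 (0.961), and correlated at 0.847 with Cxcl1. For Cxcl10 the nearest were Sdc4 (0.988), Icosl (0.983) and Acod1 (0.979). Cxcl16 was nearest to the class I gene H2-Q4 (0.936), the complement gene C3 (0.931) and the metalloprotease gene Mmp14 (0.930). The nearest genes of Cxcl11, AW112010 (0.889), 2500002B13Rik (0.886) and Il27 (0.884), and of Cxcl14, Tnfsf13 (0.817), Uchl1 (0.805) and Tmem219 (0.783), were less similar.

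Among other genes of the family, 2 of 9 ligands of the CXC, CX3C and XC groups passed the filter, Pf4 and Cx3cl1. Pf4, also called Cxcl4, stayed at group means of 39.1 to 41.6 RPKM with MPH and 31.1 to 38.0 RPKM with DMSO over the 3 times. Cx3cl1, the ligand of Cx3cr1, rose by 2.43 at 2 h under DMSO (SE 0.23, adjusted p = 5.40e-08). Under MPH it was not called at 2 h, with 1.37 to 3.53 RPKM at 2 h, against 1.48 to 2.92 RPKM at 0 h (3 cultures), and the difference between the responses was not called either. Of 10 receptors and decoys 3 were tested. Ccrl2, a non-signalling receptor, rose by 4.88 at 2 h under MPH (SE 0.39, adjusted p = 9.15e-08) and by 6.10 under DMSO (SE 0.22, adjusted p = 3.86e-14). Cxcr4, the receptor of Cxcl12, fell by 2.32 under MPH (SE 0.72, adjusted p = 0.0293) and by 2.56 under DMSO (SE 0.37, adjusted p = 1.23e-05). Cxcr3, the receptor of Cxcl9, Cxcl10 and Cxcl11, fell by 0.48 at 2 h under DMSO (SE 0.16, adjusted p = 0.0135), where 43.6% of all genes fell. None of these 5 genes was called between MPH and DMSO at any time in limma; Ccrl2 (1.13, SE 0.36, unadjusted p = 0.00589) and Cx3cl1 (1.37, SE 0.42, unadjusted p = 0.00439) before LPS and Cx3cl1 at 2 h (-0.94, SE 0.42, unadjusted p = 0.0394) had an unadjusted p under 0.05.

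Known targets of the pathways upstream of the chemokines were described by lists, which were chosen with earlier results of these data known. The counts are therefore no independent measure of these pathways. Of 28 NF-kB targets and feedback genes, 21 rose at 1 h and 27 at 2 h under MPH, and 28 of 28 rose at both times under DMSO. All 28 were above 0 under MPH too, and the shares of all genes called higher differed between these fits, 1.89% and 5.97% under MPH and 5.24% and 10.5% under DMSO. Tnf and Nfkbiz were among them, at 8.55 and 6.86 at 1 h under MPH and 7.53 and 7.19 under DMSO. In the comparison of MPH with DMSO, 1 of the 28 was higher before LPS (Cd83, 1.48, SE 0.33, adjusted p = 0.0371), 1 was lower (Ccl3, -3.31, SE 0.61, adjusted p = 0.0107), and 0 were called at 1 h and at 2 h. Ccl3, a CC chemokine gene, averaged 1.81 ± 1.24 RPKM in MPH cultures (SD, n = 3) and 24.0 ± 15.8 RPKM in D3 to D6 (SD, n = 4). Of 28 interferon and interferon regulatory factor targets, 2 and 10 rose at 1 h and 2 h under MPH and 8 and 15 under DMSO, beside the same shares of all genes. Differences above 0 numbered 18 and 23 under MPH and 17 and 24 under DMSO, and 0 were called between MPH and DMSO at any time.

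Of 17 tested cyclic AMP targets, 11 were higher with MPH before LPS, 0 at 1 h and 2 at 2 h, beside 0.869%, 0% and 0.869% of all genes called in either direction. The median over the cyclic AMP targets was 2.41 before LPS, 1.25 at 1 h and 1.09 at 2 h on the log2 scale, with 16 of 17 above 0 at 1 h and at 2 h. Over the 6 CXC members the median before LPS was 0.08 and over all genes -0.04. Among 18 tested genes of LPS sensing, Cd14, the LPS co-receptor, was higher with MPH at 0 h (2.40, SE 0.26, adjusted p = 8.25e-05) and at 2 h (1.28, SE 0.26, adjusted p = 0.0258). Irak3, an inhibitor of the pathway, was higher at 2 h (0.74, SE 0.15, adjusted p = 0.0258). Of 11 genes that control mRNA decay, 1 was higher before LPS and 1 lower at 2 h. Zfp36 encodes tristetraprolin, which destabilises AU-rich transcripts such as that of Cxcl1, and stood at 36.9 ± 8.72 RPKM with MPH (SD, n = 3) and 9.12 ± 2.09 RPKM in D3 to D6 (SD, n = 4) at 0 h. This was a difference of 1.95 (SE 0.26, adjusted p = 0.000659). Zc3h12c, a gene of the regnase family of RNA-degrading enzymes, was lower at 2 h (-1.25, SE 0.25, adjusted p = 0.0251).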

How the data were processed

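RNA was sequenced from 30 libraries, 9 from 3 MPH cultures and 21 from 7 DMSO cultures. Per the submitters' processing notes, FastQC, cutadapt, HISAT2 and SAMtools were used with build mm9; neither their versions nor the counting program or its use of strand could be read from the sources. The authors deposited RPKM values for 44401 RefSeq transcripts. Depth and approximate read counts were estimated from the steps between low values, with transcript lengths from GENCODE M21 used as lengths only. Groups came from the sample titles. Values were analysed as log2(RPKM + 0.5), for genes that reached 1 RPKM in 3 or more libraries of a fit, using limma 3.58.1 (trend) under R 4.3.3. Benjamini-Hochberg adjustment covered every gene in the fit. Effects of MPH, LPS responses under MPH and interactions were estimated from cultures M2 to M4 together with D3 to D6 (21 libraries, 10239 genes). LPS responses under DMSO were estimated from all 21 DMSO libraries (10212 genes), where the series that a culture's name belongs to was a covariate. The tests were tried on simulated data first. The intervals are not adjusted for multiple tests. Libraries of a culture deviated together over the times, with correlations of 0.628 to 0.914 (21 of 21 pairs, DMSO) and 0.673 to 0.824 (9 of 9, MPH), so a term for culture was tried as an alternative; the reported fits have none. Members and lists were chosen with earlier results of these data known. Named genes are the members, the 3 most correlated genes of each, and up to 4 called genes of each list with the smallest p. Ccrl2, Cxcr3, Cxcr4, Pf4 and Cx3cl1 are all tested genes of their lists. Alternatives were other control cultures, a term for culture, other pseudocounts, no filter, another scaling, the mean over transcripts, and each culture left out. Promoter windows are from RefSeq (GRCm38.p6). Python 3.11.15 was used for the rest. The 6 h time of the design text was not analysed here.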

Additional observations from a re-analysis of the deposited data

Results flagged for a closer look

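In 24 sets of the 7 DMSO libraries of a gene and time, 8 had a highest value set apart from the others by more of the group's range than the 95% limit for 7 values allows. That limit is passed in about 1 in 20 sets of independent, normally distributed values. These are untransformed RPKM from the same 7 cultures, so the number expected by chance here is not known. The library of D4 stood apart at 0 h for Cxcl3 at 0.389 RPKM, for Cxcl10 at 15.0 RPKM and for Cxcl16 at 51.3 RPKM, where the next highest libraries had 0.0659, 4.15 and 22.3 RPKM. It did so again for Cxcl16 at 1 h, at 80.8 RPKM against 47.6 RPKM in the next. The library of r1 stood apart at 2 h for Cxcl9 at 4.94 RPKM and for Cxcl10 at 2346 RPKM, against 0.826 and 1223 RPKM in the next. Cxcl2 was at 1956 RPKM in the 1 h library of D6, the shallowest of all, against 1295 RPKM in the next. Cxcl11 was at 0.226 RPKM in the 0 h library of r2, against 0.0833 RPKM. The part of depth or culture in these values was not tested.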

How the results depend on the processing

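Of 183 recomputed counts of called members, 172 stayed within 1.5 times of the reported count. The exceptions were both in the step from 1 h to 2 h. Under DMSO, where 3 members were called, 1 was called with D3 to D6 only. Under MPH, where 1 was called (Cxcl3), 0 were called without the 1 h library labelled M4, with a pseudocount of 0.1 and with no filter on low values, 3 with the replicate block for culture (Cxcl3, Cxcl1 and Cxcl14), and 0 to 1 with single cultures left out. The Cxcl14 call includes the 1 h library labelled M4. Its ratio of 2 h to 1 h was 0.0656 in M4, against 0.755 in M2 and 0.674 in M3. Of 385 recomputed values of the 23 called differences, 368 remained called with the same sign, 17 lost the call and 0 turned round; 9 values of uncalled differences passed and 37 had the other sign. The cause was not tested. For MPH against DMSO, 0 members were called under every alternative. The numbers shared by MPH and DMSO cultures did not pair them (correlations of -0.645 to -0.358). Some markers were alike between cultures of unlike number. At 0 h Cd68 was at 328 RPKM in M3 and 333 RPKM in D4. It was at 705 RPKM in M2 and 709 RPKM in D3, and at 789 RPKM in M4 and 804 RPKM in D5. A pairing of that kind was not tested. With the replicate block for the shared number 0 members were called. The count over all genes was then 891 at 0 h and 803 at 2 h, against 89 and 89 without it, and 161 at 1 h, against 0. Over the other alternatives those counts were also uneven, as low as 31 at 0 h without D5 and 1 at 2 h without M3. For LPS under DMSO the counts over all genes ran from 406 to 5459 at 1 h (2071 reported), 2490 to 7848 at 2 h (5529) and 267 to 5023 for 2 h against 1 h (2247), lowest with D3 to D6 only and highest with the replicate block for culture. Under MPH they ran from 147 to 1236 (315), 819 to 5577 (2121) and 39 to 3368 (332), and for the interactions from 0 to 20 (0) and 0 to 146 (11). Depth limits Cxcl1, Cxcl3 and Cxcl9 at 0 h, where single libraries held about 1 read. Reads of Cxcl11 could not be estimated, since no length was found for its transcript. Its 0 h values in D6, M2, D5, D3 and M4 fell as depth rose, as values of 1 read would. They went from 0.0339 RPKM at 18.6 M reads in D6 to 0.0106 RPKM at 59.5 M reads in M4.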
